A study of Mus musculus with 4 samples.

Results

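Translation initiation and elongation factors were taken as the genes whose symbol begins with Eif1, Eif2b, Eif2s1, Eif2s2, Eif3, Eif4, Eif5, Eif6, Eef1 or Eef2, which selected 54 of the 20207 genes in the deposited tables. Fetal livers of mouse embryos at E14.5, either wild-type or Brpf1-null, had been sorted for LSK cells (negative for lineage markers, positive for Sca-1 and Kit), among which are hematopoietic stem cells and multipotent progenitors. Brpf1 encodes a chromatin reader that scaffolds MYST-family histone acetyltransferases. Each RNA sample came from about 10000 cells pooled from 4 embryos, and the labels describe 2 samples per genotype, set out as 2 pairs. Pair 1 was run on 2 lanes and pair 2 on 6 lanes. The allele behind the Brpf1-null label and any Cre driver are not stated in the labels, which also name no treatment of either group.

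The tables of the 2 pairs held the same value for every gene in both genotypes, so each genotype has a single set of values, treated here as 1 library. The sources do not tell whether these values come from pair 1, from pair 2 or from reads of both merged, and read numbers and counting intervals apply to whatever was summed. Values are in RPKM, reads per kilobase of gene scaled to sequencing depth, which puts genes on a common scale. Libraries were primed with oligo-dT, and its effect on the levels of long against short transcripts was not tested. Ratios between genes are thus ratios of RPKM and not of transcript numbers. The low values placed the wild-type library at about 23605611 reads and the Brpf1-null library at about 22187171. With 1 library per genotype there is no replicate check on any difference, no p-value was computed, and "higher" and "lower" describe these 2 libraries. Each fold is followed in brackets by a 95% counting interval (exact Clopper-Pearson), which covers counting error only and treats reads as independent molecules.

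Translation of most mRNAs begins when the eIF4F complex binds the cap, recruits a 43S particle made of the small ribosomal subunit, eIF1, eIF1A, eIF3, eIF5 and the eIF2 ternary complex, and the particle scans to a start codon. eIF2B recharges eIF2 with GTP, and its inhibition by phosphorylated eIF2 is the switch of the integrated stress response. In elongation, eEF1A delivers aminoacyl-tRNA and is recharged by the eEF1B complex, while eEF2 moves the ribosome along the mRNA. Hematopoietic stem cells of adults are known for a low rate of protein synthesis, which rises in their progeny. That rate was not measured in the fetal cells used here.

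Brpf1 itself was at 2.59 and 2.15 RPKM, 1.20-fold lower (1.0 to 1.44). Neither the allele nor the part of the gene over which reads were counted is stated, so this level checks the labels only weakly. Markers of other cell types differed between the libraries, and in bulk RNA fewer cells of a type and less RNA per cell cannot be told apart. Of the LSK gate genes, Kit was at 25.6 and 21.3 RPKM and Ly6a, which encodes Sca-1, at 10.6 and 9.51 RPKM. Cd34 and Flt3 were listed with them but are no part of the gate as described above. Cd34 was 1.54-fold higher (1.49 to 1.58), and Flt3, at 22.9 and 33.1 RPKM, was 1.45-fold higher (1.37 to 1.54). All 10 hepatocyte markers were lower, summing to 2037 RPKM in the wild-type against 525 RPKM in the Brpf1-null library, and all 7 erythroid markers, summing to 595 and 86.7 RPKM. The 6 kept B-lineage markers were all lower, from a sum of 261 to 81.3 RPKM, with Pax5 listed at 0 in both. Of 3 kept megakaryocyte markers 2, Ppbp and Pf4, were lower, and Gp9 lay within 1.5-fold. The sums over all 5 listed were 59.8 and 20.4 RPKM. Among those not kept, Itga2b went the other way, from 0.234 to 1.01 RPKM, 4.31-fold higher (2.58 to 7.55). Neutrophil markers were lower in 4 and higher in 1 of 5 (sums of 502 and 619 RPKM). The higher one, Mpo, at 351 and 570 RPKM, held most of both sums. Macrophage markers were higher in 2 and lower in 2 of 5 (sums of 44.7 and 74.5 RPKM). The part of these cells in the translation factor values was not tested.

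Most factor transcripts differed little between the libraries, with a few exceptions in both directions, led by the elongation factor gene Eef2 and its kinase Eef2k, each about 3-fold higher in the Brpf1-null library. Of the 54 members, 51 averaged at least 1 RPKM and were kept. Eef1a2 and Eif4e1b were listed at 0 in both libraries, and Eif5a2 was below the filter at 0.534 RPKM in the wild-type against 0.216 RPKM in the Brpf1-null library. Differences were called past 1.5-fold on a log2 scale after 1 RPKM had been added to each value, so changes of low genes are understated. Among the kept members 7 were higher in the Brpf1-null library (13.7%), where 14.1% of all 9380 kept genes were higher by this rule. The lower members numbered 3 (5.88%), where 9.42% of all kept genes were lower. Against the 2361 genes that averaged at least 20 RPKM, a comparison added after the values were seen, 4 of 40 members were higher (background 10.1%) and 3 lower (7.5%, background 7.75%). With these settings the shares of members called were near or below those of other genes, and the results below concern single factors and their balance. The median log2 change of the kept members was −0.09 (quartiles −0.29 and 0.33), beside 0.04 over all kept genes.

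Centring each library on its median shifted the median of all genes by −0.11 on the log2 scale and gave 7 higher and 5 lower members, where 10.5% and 12.8% of all genes were called. The 2 added were Eif1 and Eif4e. As a group the members were abundant: their median level was 65.6 RPKM in the wild-type against 64.4 RPKM in the Brpf1-null library, where all kept genes had medians of 6.58 and 7.19 RPKM. They made up 2.69% of the summed RPKM in the wild-type library against 2.72% in the Brpf1-null library. Counting error was small at these levels. The counting interval excluded 1 for 47 of the 51 kept members, 20 above and 27 below, and 37 of those 47 lay within 1.5-fold.

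**Figure D1:**
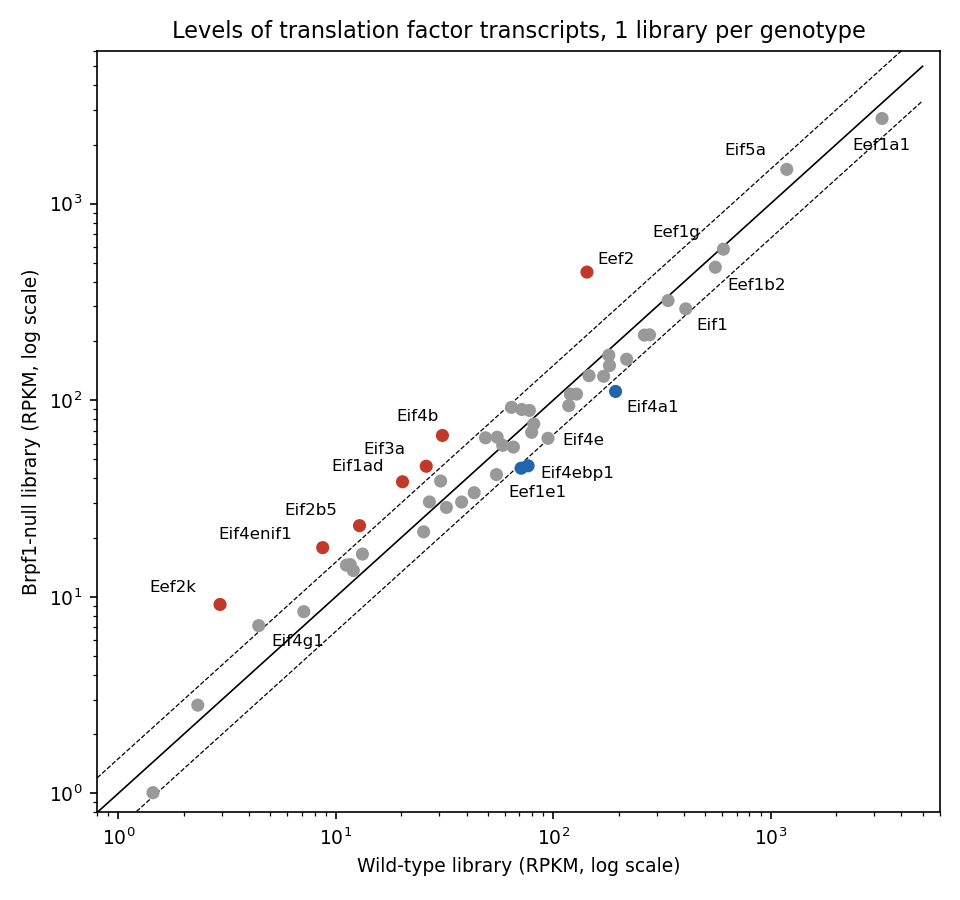
Level of each of the 51 kept translation factor transcripts in the wild-type library (x axis, RPKM, log scale) and the Brpf1-null library (y axis, RPKM, log scale), 1 point per gene and 1 library per genotype, with the line of equal levels and dashed lines at 1.5-fold. Red points are the 7 members called higher, blue points the 3 called lower, and grey points the others. Eef2 stands farthest above the line, at 143 and 449 RPKM.

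Elongation factors differed from one another in direction. Eef2, which encodes the only eEF2 translocase, had 143 RPKM in the wild-type library against 449 RPKM in the Brpf1-null library, or 3.14-fold higher (3.07 to 3.21, from about 10435 and 30759 reads). Among the 597 genes averaging at least 100 RPKM its log2 change of 1.64 ranked 3 from the highest, and 42 among all 9380. Eef2k, the kinase that phosphorylates and inhibits eEF2, was at 2.94 and 9.15 RPKM, 3.11-fold higher (2.66 to 3.66). The Eef2 level was thus 48.7 times that of Eef2k in the wild-type and 49.1 times in the Brpf1-null library.

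Eef1a1, the most abundant member and rank 7 among all kept genes by mean level, was at 3256 RPKM in the wild-type against 2713 RPKM in the Brpf1-null library, or 1.20-fold lower (1.19 to 1.21). It alone held 33.4% of the members' summed RPKM in the wild-type library and 29.3% in the Brpf1-null library. The exchange factor genes of eEF1B stayed close to equal: Eef1b2 was at 557 and 475 RPKM. Eef1d was at 180.3 and 169.5 RPKM, and Eef1g, the anchoring subunit, at 607 and 587 RPKM. All 4 of these eEF1 genes were lower with the values as deposited, but quantile normalization turned Eef1a1 to 0.14 and Eef1g to a positive log2 change, and so did removal of a trend on transcript length for Eef1g. The level of Eef1a1 was 22.8 times that of Eef2 in the wild-type library and 6.05 times in the Brpf1-null library, while it was 5.85 and 5.71 times that of Eef1b2.

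Eef1e1, whose product AIMP3 is a scaffold of the multi-tRNA synthetase complex and no elongation factor, was at 71.2 and 45.1 RPKM, 1.58-fold lower (1.5 to 1.66). Removal of a trend on GC content reduced its log2 change from −0.65 to −0.49, which ended the call.

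**Figure D2:**
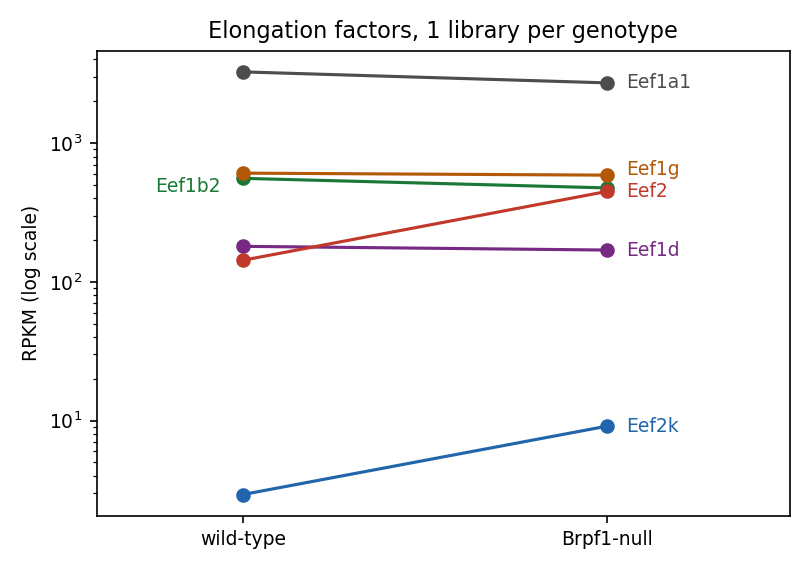
Level of the elongation factor genes Eef1a1, Eef1b2, Eef1d, Eef1g and Eef2 and of the kinase gene Eef2k in each library (y axis, RPKM, log scale), 1 library per genotype, with a line joining the values of each gene. Eef2 crosses Eef1d, from 143 to 449 RPKM, and Eef2k runs in parallel from 2.94 to 9.15 RPKM, while the eEF1 genes stay nearly level.

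Upstream sequences are shown for the abundant members that differed most, Eef2 and Eif4b upward and Eif4a1 downward. They are the 250 bases before the annotated start from RefSeq (GRCm38.p6), and capitals mark CACGTG, the E-box that MYC and MAX bind, which reads the same on both strands. The Eef2 sequence lies at chr10:81176381-81176630 on the plus strand, that of Eif4a1 at chr11:69672424-69672673 on the minus strand and that of Eif4b at chr15:102073523-102073772 on the plus strand.
Eef2: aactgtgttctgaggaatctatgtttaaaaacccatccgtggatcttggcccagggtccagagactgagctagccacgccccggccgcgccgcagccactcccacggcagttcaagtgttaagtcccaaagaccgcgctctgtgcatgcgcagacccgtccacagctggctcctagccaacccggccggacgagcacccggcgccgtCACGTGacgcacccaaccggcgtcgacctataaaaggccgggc
Eif4a1: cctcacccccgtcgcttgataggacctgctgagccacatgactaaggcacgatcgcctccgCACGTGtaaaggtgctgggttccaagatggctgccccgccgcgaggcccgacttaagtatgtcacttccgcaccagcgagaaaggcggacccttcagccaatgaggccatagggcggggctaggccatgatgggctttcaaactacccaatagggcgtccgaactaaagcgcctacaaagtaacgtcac
Eif4b: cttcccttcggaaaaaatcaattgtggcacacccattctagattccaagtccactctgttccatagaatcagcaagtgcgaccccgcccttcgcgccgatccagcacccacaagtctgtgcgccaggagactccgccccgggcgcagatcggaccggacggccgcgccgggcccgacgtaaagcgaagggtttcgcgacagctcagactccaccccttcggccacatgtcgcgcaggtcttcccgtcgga

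The E-box began 43 bases before the annotated start of Eef2, the member with the largest positive log2 change, and 189 bases before that of Eif4a1, the member with the largest negative one. Eif4b held none in the 250 bases shown. Over windows from 250 bases before to 50 after the start, which RefSeq gave for 41 members, 12 held CACGTG (29.3%), beside 8.09% of all 27025 genes with a window and 12.4% of the 7454 kept genes with one. The 11 kept holders were split in direction: 7 were above and 4 below the wild-type level, with log2 changes from −0.80 to 1.64 and a median of 0.33, beside −0.06 for the 28 kept members without it. The ETS core CCGGAAGT, on either strand, was in 8 of the 41 windows (19.5%), beside 10.7% of kept genes. A C followed by 4 pyrimidines at the annotated start, the form of a 5′ terminal oligopyrimidine (TOP) tract, was found for Eif3f alone (2.44%, beside 3.02% of kept genes). Such a match depends on the exact annotated base. Eef1a1, Eef2 and Eif4b, whose mRNAs are known TOP mRNAs, had windows but no match. The share found is therefore no measure of how many members have TOP mRNAs. A match is a run of letters and not a measured binding site.

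Within the eIF4F group, which binds the cap and opens mRNA structure, the helicase gene Eif4a1 was lower and its cofactor gene Eif4b higher in the Brpf1-null library. Eif4a1, the main eIF4A helicase, was at 194 RPKM in the wild-type against 111 RPKM in the Brpf1-null library, or 1.75-fold lower (1.68 to 1.81). Its paralog Eif4a2 was at 58.6 and 59.0 RPKM, a ratio of 1.0 (0.955 to 1.06). The level of Eif4a1 was accordingly 3.3 times that of Eif4a2 in the wild-type library and 1.88 times in the Brpf1-null library. Eif4a3, the helicase of the exon junction complex, was at 146 and 133 RPKM. Eif4b, which stimulates the helicase, was at 31.0 and 66.2 RPKM, 2.14-fold higher (2.04 to 2.24). Its relative Eif4h was at 71.8 and 89.8 RPKM, higher by 0.32 on the log2 scale. The level of Eif4b was 0.16 times that of Eif4a1 in the wild-type and 0.597 times in the Brpf1-null library.

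The cap-binding gene Eif4e was at 94.7 and 64.1 RPKM, 1.48-fold lower (1.42 to 1.54) and just within the 1.5-fold limit with the values as deposited. Its log2 change of −0.56 became −0.68 once both libraries had been set to the same median, which is past the limit. Eif4e2, a cap-binding relative that does not join eIF4G in the same way, was at 30.4 and 38.8 RPKM, 1.28-fold higher (1.20 to 1.36). Eif4e3 was low, at 2.32 and 2.81 RPKM, and its interval included 1 (0.957 to 1.53). The level of Eif4e2 was 0.321 times that of Eif4e in the wild-type library and 0.606 times in the Brpf1-null library.

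Among the proteins that hold eIF4E back from eIF4G, Eif4ebp1, the mTOR-regulated repressor 4E-BP1, was at 76.7 RPKM in the wild-type against 46.4 RPKM in the Brpf1-null library, or 1.65-fold lower (1.57 to 1.75). Its level relative to Eif4e was 0.81 in the wild-type library and 0.725 in the Brpf1-null library, so both were lower by a similar factor. Eif4ebp2 was at 1.44 and 1.01 RPKM, from about 48 and 32 reads, with an interval that included 1 (1.43-fold lower, 0.883 to 2.28). Eif4ebp3 was at 12.1 and 13.6 RPKM, also with an interval that included 1. By level, 4E-BP1 was therefore the main eIF4E-binding protein transcript in both libraries, with Eif4ebp3 next. It stood at 53.1 and 46.0 times Eif4ebp2, the lowest of them. Eif4enif1, which encodes the eIF4E transporter 4E-T, went the other way, from 8.71 to 17.8 RPKM, 2.04-fold higher (1.87 to 2.23).

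The scaffold gene Eif4g1 was low for a core factor, at 4.43 and 7.14 RPKM, 1.61-fold higher (1.45 to 1.80) as a ratio but within 1.5-fold with the pseudocount of 1 RPKM. A pseudocount of 0.1 RPKM put it past the limit. Eif4g3 was at 7.13 and 8.41 RPKM. Eif4g2 (DAP5), a relative that lacks the eIF4E-binding site and serves cap-independent initiation, was the most abundant of the 3 at 65.6 and 57.8 RPKM. Its level was 14.8 times that of Eif4g1 in the wild-type library and 8.1 times in the Brpf1-null library.

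**Figure D3:**
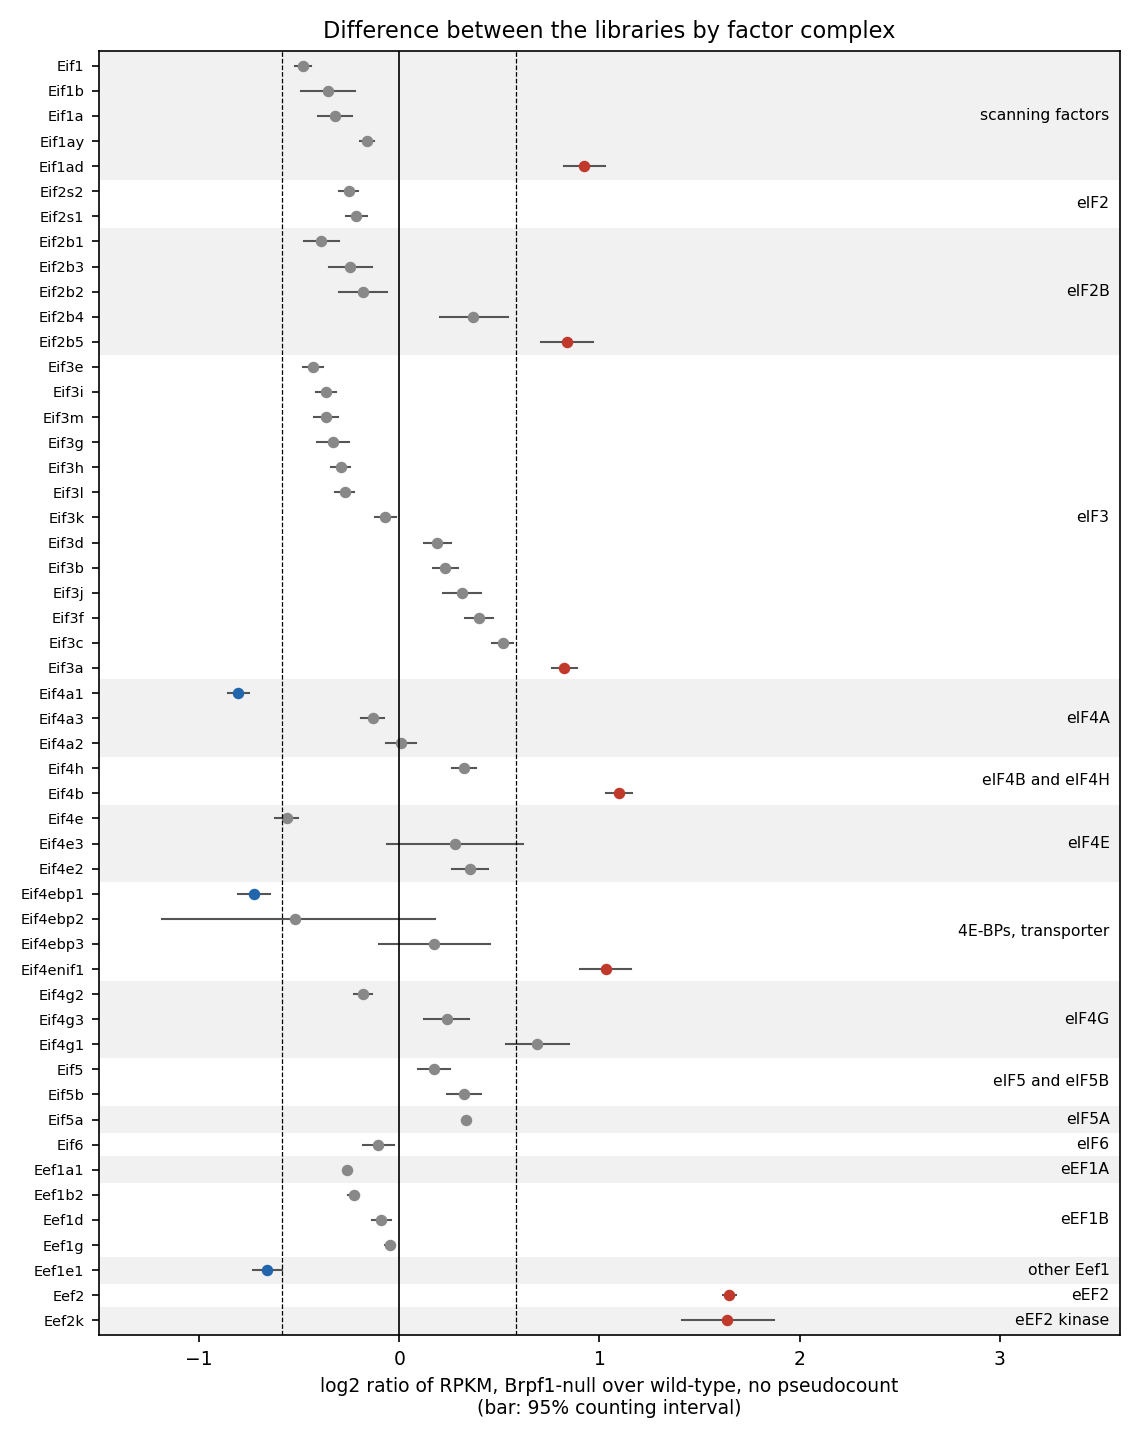
Log2 ratio of RPKM between the Brpf1-null and the wild-type library, without pseudocount, for the 51 kept members, grouped by complex, with bars for the 95% counting interval and dashed lines at 1.5-fold. Red and blue points are members called higher and lower. Eef2, Eef2k, Eif4b and Eif4enif1 lie past a log2 ratio of 1, and no member lies past −1.

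The 13 subunit genes of eIF3, the scaffold that holds the 43S particle together, divided by level. The 7 subunits with the highest wild-type levels (Eif3k, Eif3i, Eif3h, Eif3e, Eif3l, Eif3m and Eif3g, 118 to 338 RPKM) were all lower in the Brpf1-null library, at 93.9 to 322 RPKM. The 6 with the lowest levels (Eif3d, Eif3c, Eif3b, Eif3f, Eif3a and Eif3j, 13.3 to 77.8 RPKM) were all higher, at 16.5 to 92.0 RPKM. Only Eif3a passed 1.5-fold. Each sign held under the scalings and trends tried, except that Eif3k turned to 0.12 when a trend on transcript length was removed.

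Eif3a, the largest subunit, was at 26.1 and 46.2 RPKM, 1.77-fold higher (1.69 to 1.85). Eif3c, its partner in the core, was at 64.4 and 92.0 RPKM, 1.43-fold higher (1.38 to 1.48). At the other end Eif3e was at 218 RPKM in the wild-type against 162 RPKM in the Brpf1-null library, or 1.35-fold lower (1.30 to 1.40). Eif3k, a peripheral subunit and the most abundant, was at 338 and 322 RPKM. The spread between the highest and lowest subunit was 25.5-fold in the wild-type library against 19.5-fold in the Brpf1-null library. The direction did not follow the architecture of the complex: of the 8 subunits of the PCI/MPN octamer, 3 (Eif3a, Eif3c and Eif3f) were higher and 5 lower, and of the other 5, 3 were higher and 2 lower. The 7 lower subunits had transcripts of 774 to 1942 bases and the 6 higher ones 1899 to 5413 bases. GC content overlapped between them, at 40.3 to 55.8% and 42.5 to 55.9%. The subunit genes summed to 1852 RPKM in the wild-type against 1662 RPKM in the Brpf1-null library.

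**Figure D4:**
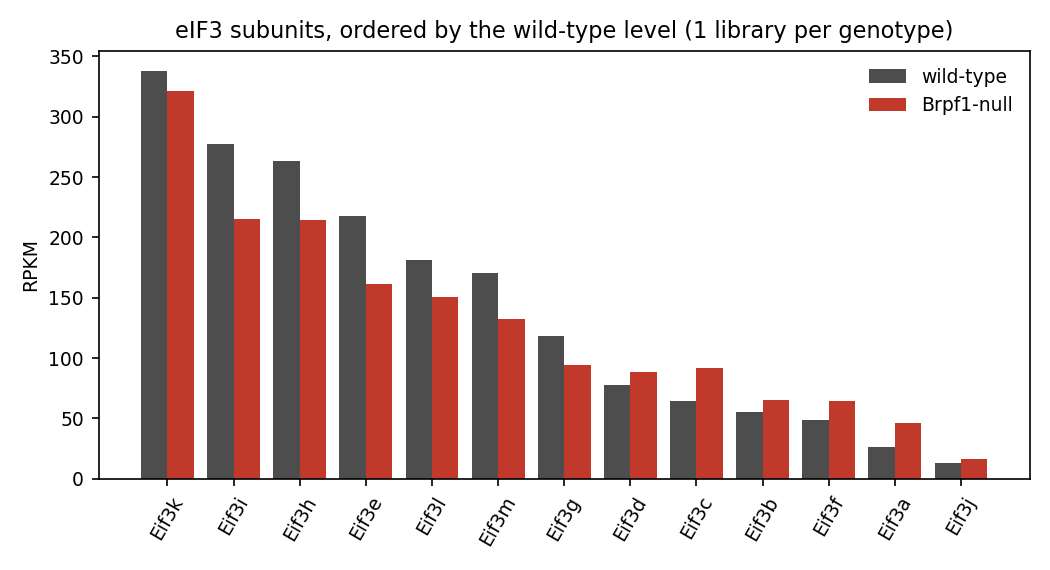
Level of the 13 eIF3 subunit genes in the wild-type (grey bars) and the Brpf1-null library (red bars), in RPKM, ordered by the wild-type level, with 1 library per genotype and no error bars. The 7 leftmost subunits are lower in the Brpf1-null library and the 6 rightmost are higher.

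For eIF2, which carries the initiator tRNA, the alpha subunit gene Eif2s1 was at 79.7 and 68.7 RPKM, 1.16-fold lower (1.12 to 1.20), and the beta subunit gene Eif2s2 at 128 and 108 RPKM, 1.19-fold lower (1.15 to 1.23). Removal of a GC trend turned Eif2s1 to 0.027 on the log2 scale. The gamma subunit is encoded on both sex chromosomes, outside the symbols selected: Eif2s3x was at 23.5 and 34.8 RPKM, 1.48-fold higher (1.40 to 1.57), and Eif2s3y at 11.2 and 3.87 RPKM, 2.88-fold lower (2.40 to 3.46). In the same libraries the Y-linked genes Ddx3y, Uty and Kdm5d were 3.56-fold, 5.15-fold and 2.02-fold lower and the X-inactivation RNA Xist was 2.45-fold higher, and their part in the Eif2s3 values was not tested.

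Of the 5 subunit genes of eIF2B, the exchange factor for eIF2, the catalytic epsilon subunit gene Eif2b5 was called higher and the other 4 lay within 1.5-fold. Eif2b5 was at 12.9 RPKM in the wild-type against 23.0 RPKM in the Brpf1-null library, or 1.79-fold higher (1.64 to 1.96). Eif2b4, the delta subunit, was at 11.2 and 14.48 RPKM. Eif2b1, the alpha subunit that senses phosphorylated eIF2, was the most abundant at 54.9 and 41.9 RPKM, 1.31-fold lower (1.23 to 1.39). The subunits ranged over 4.89-fold in the wild-type library and 2.89-fold in the Brpf1-null library, so their levels lay closer together in the latter. The level of Eif2s1 was 6.19 times that of Eif2b5 in the wild-type and 2.98 times in the Brpf1-null library.

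Genes of the eIF2 kinases and the stress response were measured beside them, from a list of 8 with 1 higher, 1 lower (12.5% each, where 14.1% and 9.42% of all kept genes were called) and 6 within 1.5-fold. Eif2ak2, the interferon-inducible kinase PKR, was at 1.41 and 3.97 RPKM, 2.82-fold higher (2.33 to 3.45). Ddit3, which encodes the stress-induced factor CHOP, was at 11.6 and 6.15 RPKM, 1.89-fold lower (1.52 to 2.38), and Atf4, the factor whose translation eIF2 phosphorylation favours, was at 46.7 and 33.3 RPKM. This list had a median of 0.0037 on the log2 scale. Of the 6 further eIF2 and initiator tRNA genes outside the selection, Eif2s3y alone was past 1.5-fold.

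Among the genes named for eIF1 and eIF1A, which set the accuracy of start codon choice, 4 were lower within 1.5-fold and 1 was higher. Eif1 was at 407 RPKM in the wild-type against 292 RPKM in the Brpf1-null library, or 1.40-fold lower (1.36 to 1.43), and centring moved its log2 change from −0.48 to −0.61, past the limit. Its paralog Eif1b was at 43.3 and 33.9 RPKM, 1.28-fold lower (1.17 to 1.41), so that Eif1 stood at 9.4 and 8.62 times Eif1b. Eif1a was at 37.9 and 30.4 RPKM. The gene listed as Eif1ay, an older name of the X-linked Eif1ax in RefSeq, was at 120.0 and 107 RPKM, 1.12-fold lower (1.09 to 1.15), and removal of a GC trend turned it to 0.10. Eif1ad, which encodes a protein with an eIF1A-like domain, was at 20.3 and 38.5 RPKM, 1.90-fold higher (1.77 to 2.04).

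The factors of subunit joining and the later steps all lay within 1.5-fold, with Eif5, Eif5b and Eif5a higher and Eif6 lower in the Brpf1-null library. Eif5, which triggers GTP hydrolysis by eIF2, was at 27.0 and 30.4 RPKM, and Eif5b, the GTPase of subunit joining, at 11.7 and 14.6 RPKM. Eif5a, the hypusine-bearing factor that relieves stalled ribosomes, was the second most abundant member at 1187 RPKM in the wild-type against 1495 RPKM in the Brpf1-null library, or 1.26-fold higher (1.24 to 1.28). Together with Eef2 it was the exception among the 18 members with a mean of at least 100 RPKM, of which 16 were lower in the Brpf1-null library (88.9%), as were 369 of all 597 kept genes at that level (61.8%). Eif6, which keeps free large subunits from joining, was at 81.5 and 75.7 RPKM.

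Across the 51 kept members the log2 change followed transcript length and level, and GC content to a lesser degree. Spearman's rho was 0.50 with transcript length, beside 0.15 over 9258 kept genes, and 0.29 with GC content, beside 0.29 over those genes. With mean level it was −0.39, beside −0.06. These are correlations across genes of the same 2 libraries, which are not independent replicates. Of the 26 members with transcripts of up to 2514 bases, the median, 20 were lower in the Brpf1-null library, with a median log2 change of −0.25. Of the 25 longer ones 17 were higher, with a median of 0.29. With the trend on GC content over all genes removed, the log2 change of Eef2 was 1.45, that of Eif4b 1.07, that of Eif3a 0.95 and that of Eif4a1 −0.75. With the trend on length removed they were 1.62, 1.04, 0.76 and −0.73.

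**Figure D5:**
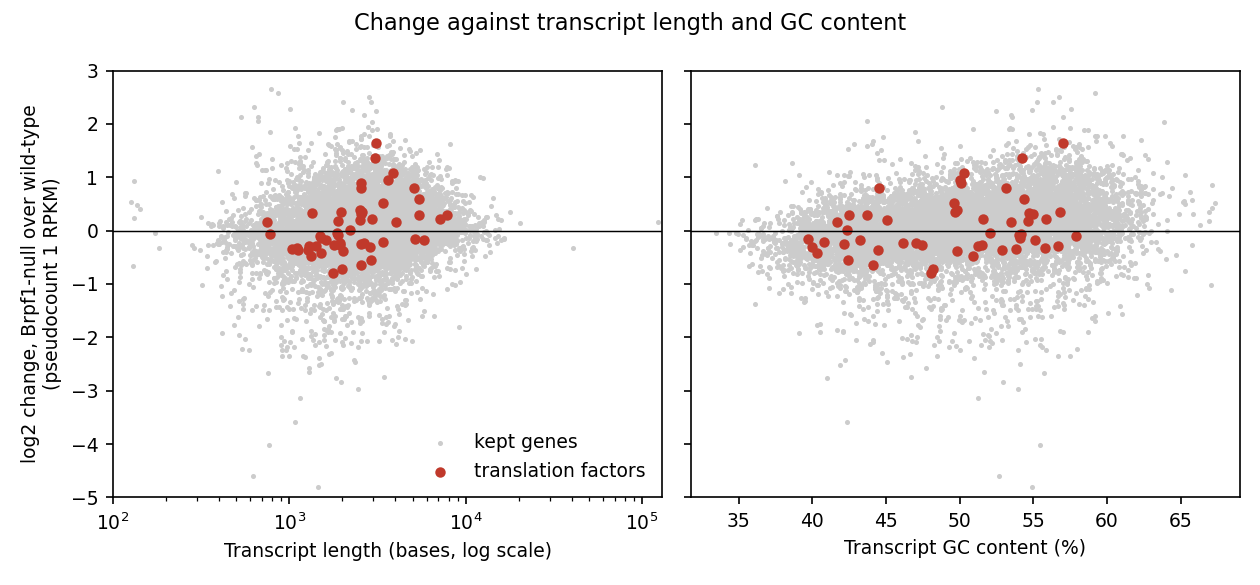
Log2 change between the Brpf1-null and the wild-type library (y axis, pseudocount 1 RPKM) against transcript length (left, bases, log scale) and GC content (right, percent) for 9258 kept genes (grey) and the 51 kept translation factors (red). Short factor transcripts lie mostly below 0 and long ones mostly above, with Eef2 at the top at 1.64.

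Of 12 genes for partners of the factors at the cap and the poly(A) tail, 3 were higher (25%, background 14.1%) and 1 was lower (8.33%, background 9.42%) by 1.5-fold. The other 8 lay within that limit, and the list median was 0.36 on the log2 scale. Larp1, which binds TOP mRNAs and represses their translation, was at 9.59 and 16.6 RPKM, 1.73-fold higher (1.62 to 1.84), and Mknk1, an eIF4E kinase, was 1.67-fold higher (1.45 to 1.93). The scanning helicase gene Dhx29 was at 1.36 and 2.55 RPKM. Paip2, which inhibits the poly(A)-binding protein, was at 286 and 180.4 RPKM, 1.58-fold lower (1.53 to 1.64), and Pabpc1, that binding protein, was at 244 and 330 RPKM, 1.36-fold higher (1.33 to 1.38, named after its value was seen).

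Ribosomal protein mRNAs, which like those of eEF1A, eEF2, eIF4B and PABPC1 are TOP mRNAs, were not higher as Eef2 and Eif4b were. Of 82 kept cytosolic ribosomal protein genes, 0 were higher (background 14.1%) and 5 lower by 1.5-fold (6.1%, background 9.42%). Below their wild-type level were 71, with a median log2 change of −0.24 over the 82. Among all 597 kept genes averaging at least 100 RPKM, a level that not all of the 82 reached, 61.8% were below. Rps2 fell just short of the limit, at 512 and 766 RPKM, 1.497-fold higher (1.463 to 1.533). Rpl13 was the lowest, at 1202 and 538 RPKM. The 4 lower ones beside it were Rpl26, Rpl27, Rpl37a and Rpl32, from 1.52-fold to 1.68-fold. Rpl26, at 25.4 and 15.1 RPKM, and Rpl27, at 18.0 and 11.1 RPKM, lay far below Rpl37a and Rpl32 in level. Many ribosomal protein genes have processed copies in the genome. Transcripts of 24 of the 54 factors matched those of another annotated gene over at least 200 bases at 95% identity, among them Eif1 (12 pseudogenes), Eef1a1 (9), Eef1g (4) and Eif4a1 (3). The 24 are not all factors with copies. Some matched no pseudogene but only a gene of another name, as did Eif1ad (Banf1), Eif2b4 (Snx17), Eif5b (Rev1) and Eef1d (Naprt). How the deposited values treated reads that fit several genes is not stated in the labels, so levels of genes with such matches are uncertain. Eef2 had 1 such copy and Eif4b had 0.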

How the data were processed

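Libraries had been primed with oligo-dT on RNA of sorted LSK cells. Reads were aligned with TopHat to mm9, per the submitters' processing notes. Its version, the annotation and the counting program were not given in the sources used here. Per the file headers, the authors deposited RPKM for pair 1 and FPKM for pair 2. Deposited fold changes (the ratio wild-type over mutant) and their log2 stood in further columns. They ran opposite to the direction used here and were not used. Of 20207 values per genotype, 0 differed between the 2 tables.

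Members and gene lists were chosen with earlier results of these data known. Named were members past 1.5-fold, the most abundant and the extreme members of each complex, and set paralogs. Changes are log2 with a pseudocount of 1 RPKM, for genes averaging at least 1 RPKM. Lengths and GC content came from GENCODE M21 transcripts linked to RefSeq, matched for 17518 symbols directly and 2303 by synonym. That annotation is of GRCm38, so coordinates are given only for RefSeq promoter windows, which were not at hand for Eef1d, Eef1g, Eif1a, Eif2b3, Eif3e, Eif3h, Eif3i, Eif4e1b, Eif4e3, Eif4ebp1, Eif4ebp3, Eif4g2 and Eif6.

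Library sizes were those at which most low values of genes with 1 transcript length became whole numbers of reads (within 0.1): 62.0% of 1588 wild-type and 63.9% of 1595 Brpf1-null values, against 22.5% and 24.2% with sizes raised by 5%. The method was tested on simulated data. Read numbers, and so the intervals, are approximate. Trends on GC content or length were removed with lowess. Python 3.11.15, scipy 1.17.1 and statsmodels 0.14.6 were used.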

Additional observations from a re-analysis of the deposited data

How the results depend on the processing

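No paired analysis was possible because the tables of the 2 pairs hold the same values, and for the same reason no replicate could be left out. The count of lower members, 3 with the values as deposited, was 5 with both libraries centred on their medians and 1 without regulators that are no factors themselves (the 4E-BPs, 4E-T, Eef2k and Eef1e1). Without those regulators the higher members numbered 5 instead of 7, among 45 kept, where 14.1% of all genes were higher and 9.42% lower. With a looser limit of 0.32 on the log2 scale 13 members were higher and 11 lower, where 28.3% and 20.7% of all genes were called. With 2-fold 3 were higher (Eef2, Eef2k and Eif4b) and 0 lower, where 4.14% and 3.46% of all genes were called. A pseudocount of 5 RPKM left 7 higher and 3 lower of 51, but only 5.91% and 4.19% of all genes. With 0.1 RPKM 8 were higher and 3 lower, where 18.6% and 12.4% of all genes were called. Without the filter 7 were higher and 3 lower of 54, where 7.12% and 5.34% of all genes were called. The median log2 change of the members ran from −0.22 (centred) to −0.0024 (GC trend removed), and that of the eEF1B genes, −0.09, was −0.22 with centring, −0.13 with the GC trend removed, −0.016 with quantile normalization and −0.026 with a length trend removed, an alternative chosen after the values were seen. Over the 6 scalings, pseudocounts and trends run for each member, all 10 called members kept their sign, 9 kept their call, and Eef1e1 lost it with the GC trend removed. Of the 51 kept members 45 kept their sign, and the exceptions were Eef1a1, Eef1g, Eif1ay, Eif2s1, Eif3k and Eif4a2. The planned comparison of paralog proteins was not run. Depth limits Eif4ebp2, Eif4ebp3 and Eif4e3, whose counting intervals included 1.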

Other observations

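Mitochondrial translation factors, which serve the organelle's own ribosomes, showed no shared direction. Of 9 genes, 1 was higher and 0 lower by 1.5-fold once 1 RPKM had been added (14.1% and 9.42% of all kept genes were called), and the list median was −0.0042 on the log2 scale. Gfm2, a factor of mitochondrial ribosome recycling, was at 4.71 RPKM in the wild-type against 8.47 RPKM in the Brpf1-null library, or 1.80-fold higher (1.57 to 2.06). Tufm, the mitochondrial counterpart of eEF1A, was at 74.0 and 79.1 RPKM, while its exchange factor gene Tsfm was at 40.6 and 26.9 RPKM, 1.51-fold lower without the added 1 RPKM and within 1.5-fold with it (both were picked with their values in view).

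Genes of termination and ribosome recycling lay within 1.5-fold in all 5 kept members with 1 RPKM added. Pelo, a rescue factor of stalled ribosomes, was at 4.79 and 7.27 RPKM, which is 1.52-fold higher without that addition. Of the hypusine enzymes that modify eIF5A, both within 1.5-fold, Dhps was at 5.36 and 7.80 RPKM, and Dohh was at 8.04 and 8.56 RPKM with a counting interval that included 1 (0.897 to 1.26). Of the selenocysteine genes, Secisbp2, which binds the selenocysteine insertion element, was at 3.06 and 6.12 RPKM, 2.0-fold higher (1.70 to 2.34), and the specialised elongation factor gene Eefsec was at 10.7 and 8.99 RPKM (picked with its value in view).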
